A study of Mus musculus with 24 samples.

Results

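The replication-dependent histone genes are the protein-coding genes whose symbols begin with Hist1h, Hist2h, Hist3h or Hist4h in GENCODE mouse release 21. By that rule, 67 of the 55335 genes in the count table were members, and 59 of the 67 had a count in at least 1 library. They comprised 6 linker histone H1 genes, 18 H2A genes, 18 H2B genes, 12 H3 genes and 13 H4 genes. On GRCm38, 54 members lay on chromosome 13 between 21715763 and 23934851, 10 on chromosome 3, 2 on chromosome 11 and 1, Hist4h4, on chromosome 6.

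Core histones H2A, H2B, H3 and H4 form the protein spool of the nucleosome, and H1 binds the linker DNA between spools. Replication-dependent histone genes are transcribed mainly in S phase, when new DNA has to be packaged. Their mRNAs end in a stem-loop instead of a poly(A) tail, which the stem-loop binding protein Slbp recognises, and they are degraded when DNA synthesis stops.

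The series measured small RNAs by sequencing of total RNA in mouse embryonic stem cells (mESC) and in neural progenitor cells (NPC) differentiated from such cells, and asked how the CAG repeat of the Huntington's disease gene Htt relates to RNA processing. Each cell type was represented by 6 genotypes with 2 libraries each, 24 libraries in all. The genotypes were an Htt knockout (KO), wild type (WT), and 4 heterozygous Hdh CAG knock-in lines: Q20, Q50, Q92 and Q111, where the number counts the repeats of the altered allele. Being heterozygous, the knock-in lines keep an unaltered allele beside the altered one. The Q92 line is given as 92 repeats in the sample titles and as 89 in the growth protocol. The mESC were kept with leukemia inhibitory factor on gelatin with irradiated fibroblast feeders, and the NPC on laminin with FGF and EGF. The labels describe the 2 libraries of a group as biological samples but do not say whether they came from separate clones or differentiations, so p-values measure the spread between these samples.

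Library totals were 642384 to 2360434 counts in mESC and 342022 to 682113 in NPC, of which histone genes took 968 to 1707 and 157 to 631 counts. Levels are given as CPM, counts per 1000000 of the library total scaled by TMM, a correction for differences in library composition. A level resting on 3 counts corresponded to 1.36 to 4.23 CPM in mESC and 4.49 to 8.44 CPM in NPC. Stem cell markers (18 genes) summed to between 998 and 2501 CPM in mESC, and neural progenitor markers (16 genes) to between 118 and 394 CPM in NPC against 9.95 to 20.8 CPM in mESC. The 2 NPC libraries of Q20 held 340 and 348 CPM of stem cell markers, against 4.62 to 14.1 CPM in the other 10 NPC libraries. Of 10 fibroblast markers, 8 were at 0 in every mESC library, Thy1 had 1 count, and Fn1, fibronectin, had 6 to 52 counts in each mESC library. The count on Htt itself was 0 to 9 per library in every genotype, with 1 to 3 in the 4 KO libraries, too few to check the labels.

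The stem-loop at the 3' end of the transcript models is shown first because it is the feature that sets these genes apart from other protein-coding genes. The letters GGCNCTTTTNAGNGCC, where N is any base, were searched on the transcript strand. They were found in the models of 42 of the 67 members, or 62.7%, and in 47 of the 55450 annotated genes, or 0.085%. Outside the members, 5 genes had them, among them H2afx, a histone variant gene. Each line gives 26 bases of the transcript model, 5' to 3', with the stem and loop in capitals.
Hist1h3b: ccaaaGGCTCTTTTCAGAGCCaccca
Hist1h2bh: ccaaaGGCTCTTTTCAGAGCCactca
Hist1h2bk: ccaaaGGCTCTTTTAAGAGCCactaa
Hist2h3c2: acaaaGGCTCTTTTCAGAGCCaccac
Hist4h4: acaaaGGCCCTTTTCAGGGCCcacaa
Hist1h4i: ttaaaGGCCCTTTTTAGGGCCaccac
The stem split by class. All 9 H4 genes with a match carried GGCCCTTTT followed by C (7 genes) or T (2 genes), as in Hist4h4 and Hist1h4i. The 33 matches in H1, H2A, H2B and H3 carried the GGCTCTTTT form, with C after it in 26 genes, A in 6 and T in 1. The A form, as in Hist1h2bk, occurred in 1 H1, 2 H2B and 3 H3 genes. A model without a match says only that these letters were not in the annotated sequence. The median count over all libraries was 216.5 in the 42 members with a match and 74 in the 25 without. Those without a match also shared more of their sequence with other genes, a median of 86.9% against 55.6%, a measure explained below.

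Promoter windows were compared because members that share a control region could move together. RefSeq (GRCm38.p6) gave 63 windows for 62 of the 67 members, and the 100 bases before each start were searched on both strands for CCAAT, the letters bound by NF-Y, for TATAA, the core of the TATA box, and for ATGCAAAT, the octamer bound by Oct factors. None of the 3 words is contained in another. CCAAT was present in 48 of the 63 windows (76.2%) against 18.9% of all 32851 windows, and TATAA in 30 (47.6%) against 10.2%. The octamer occurred in 6 member windows (9.52%) against 0.645% of all, and all 6 were H2B windows, of which there were 17. CCAAT was in 18 of 18 H2A windows, 6 of 6 H1, 15 of 17 H2B and 7 of 10 H3 windows, but in 2 of 12 H4 windows. The following lines give the 100 bases before the more upstream of the RefSeq and GENCODE starts of 4 genes that recur in the results and of Hist4h4, 5' to 3' on the strand of the gene, with the searched words in capitals.
Hist1h3b (chr13:23752167-23752266, plus strand): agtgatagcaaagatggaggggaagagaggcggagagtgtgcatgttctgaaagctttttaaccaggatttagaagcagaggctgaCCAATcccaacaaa
Hist1h2bh (chr13:23543445-23543544, minus strand): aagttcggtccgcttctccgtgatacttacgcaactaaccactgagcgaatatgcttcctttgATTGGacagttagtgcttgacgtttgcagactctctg
Hist1h2bk (chr13:22035721-22035820, plus strand): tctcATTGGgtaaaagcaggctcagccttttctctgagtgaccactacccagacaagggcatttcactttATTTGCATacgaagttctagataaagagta
Hist2h3c2 (chr3:96239128-96239227, minus strand): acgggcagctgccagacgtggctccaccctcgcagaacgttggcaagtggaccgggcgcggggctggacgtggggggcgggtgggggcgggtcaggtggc
Hist4h4 (chr6:136804432-136804531, minus strand): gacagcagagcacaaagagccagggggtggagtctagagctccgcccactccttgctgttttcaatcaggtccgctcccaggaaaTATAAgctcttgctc
The windows differ among genes whose levels are described together below. CCAAT stands in those of Hist1h3b, Hist1h2bh (as ATTGG) and Hist1h2bk (as ATTGG, with the octamer as ATTTGCAT), and the Hist2h3c2 window holds none of the 3 words. A match is a description of the letters and was not tested as a binding site.

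Many histone genes are near copies of each other, and this bears on the values of those single genes. For each member, the share of its 30-base stretches that also occur in another gene, on either strand, was computed from the transcript models. The 8 members without any count (Hist1h2ao, Hist1h2ap, Hist1h4m, Hist1h2bq, Hist1h2br, Hist2h2aa1, Hist2h2aa2 and Hist2h3c1) shared between 89.6% and 100% of their stretches. The 59 members with counts shared a median of 55.6%. By class, the median was 4.1% in H1 and 77.4% in H2A, and Hist2h4, an H4 gene, shared 2.94%. The share also counts genes annotated over a member, as in Hist2h2bb, which shared 100% with Gm20628 on the other strand. Over the 21 members that shared more than 80%, the median count was 33, and over the other 46 it was 235. A gene with few counts here may therefore share its sequence with others, and how reads with several matches were counted is not given in the sources used here. Hist1h3b shared 62.1%, Hist1h2bk 75.4%, Hist2h3c2 64.3%, Hist1h2bh 29.9% and Hist4h4 14.7%, so the first 3 in particular are uncertain as single genes. All 18 H2A genes also overlap an annotated gene on the other strand. For 17 of them it is annotated as a miRNA, and these 17 partners held 3 counts in all.

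**Figure D1:**
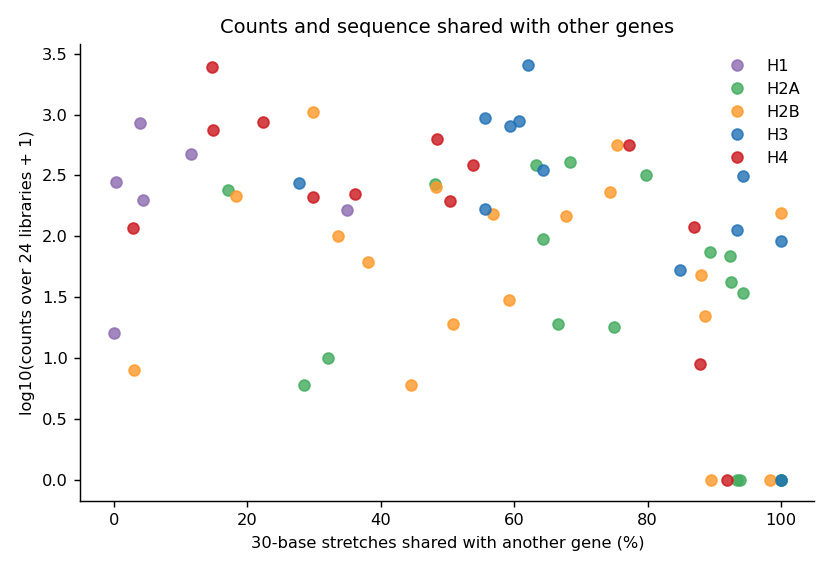
Each point is 1 of the 67 histone genes, coloured by class. The x axis is the percent of its 30-base stretches found in another gene and the y axis is log10 of its count over the 24 libraries plus 1. The 8 genes at 0 counts all lie at 89.6% or more, while the 2 most counted genes, Hist4h4 and Hist1h3b, lie at 14.7% and 62.1%.

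Counts on histone genes were a small part of each library and were concentrated in few genes. All members together held 20027 counts, which was 0.0800% of all counts and 1.75% of the counts on protein-coding genes. H3 genes held 6538 of these counts, H4 genes 6473, H2B 3049, H1 1990 and H2A 1977. Hist1h3b, an H3 gene, held 2560 counts and Hist4h4, an H4 gene apart from the clusters, held 2432. The 4 most counted genes took 34.9% of the counts on histone genes and the 10 most counted took 58.7%. Mean levels over the 24 libraries were also taken per kilobase of gene model. Among the genes with the highest mean CPM of their class, Hist1h3b had 241 CPM per kilobase, Hist1h2bk 56.4, Hist1h3c 55.9, Hist1h4c 45.9 and Hist4h4 36.5. Genes outside that choice were as high, such as Hist1h3g at 63.7, Hist1h4b at 58.4 and Hist1h3a at 53.9.

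Summed over all members, the histone level was 1031 ± 348 CPM in mESC (SD, n = 12) and 692 ± 366 CPM in NPC (SD, n = 12). The ranges overlapped, with 694 to 1648 CPM in mESC and 331 to 1443 CPM in NPC. The spread within a cell type followed the library rather than the genotype in mESC and was led by the Q111 genotype in NPC. In mESC, the second libraries of KO, WT, Q50, Q92 and Q111 held 1102 to 1648 CPM and the first libraries of the same groups 738 to 942 CPM. The 2 Q20 libraries, at 694 and 755 CPM, lay with the first libraries. The second libraries were also shallower, with totals of 642384 to 1149003 counts against 2134729 to 2360434, and the part of depth in this split was not tested.

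**Figure D2:**
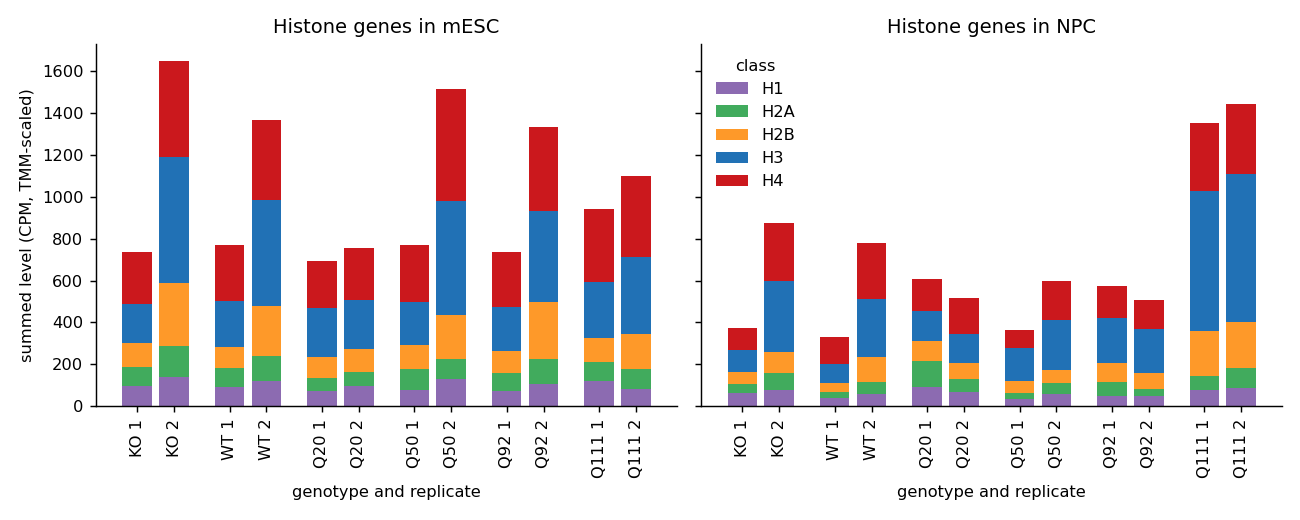
Bars give the summed level (CPM) of the histone genes in each of the 24 libraries, stacked by class, for mESC on the left and NPC on the right. In mESC the second library is the higher in 5 groups other than Q20, and in NPC the 2 Q111 libraries (1351 and 1443 CPM) are the highest.

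The difference between first and second mESC libraries was uneven across histone genes. Among the 43 members tested in mESC, 34 had a median ratio of second to first library above 1 over the 5 groups, where 55.6% of all 1766 genes tested had one. The median of these medians was 0.45 on the log2 scale for the members and 0.11 for all genes. In 13 members the second library was higher in 5 of 5 groups, against 19.5% of all genes, and in 4 members it was lower in 5 of 5, against 12.7%. Many other genes thus differed between the same libraries. The leading genes were Hist1h2bh with a median log2 ratio of 2.61, Hist1h3b with 2.51, Hist2h3c2 with 2.04, Hist2h2ac with 1.78 and Hist1h2bk with 1.41. These include the 4 genes that changed with repeat length in NPC below. Hist1h3b stood at 28.2, 53.8, 25.3, 31.7 and 38.1 CPM in the first mESC libraries of KO, WT, Q50, Q92 and Q111, and at 299, 243, 145, 243 and 152 CPM in the second. The groups of first and second libraries did not overlap for this gene, and the 2 Q20 libraries, at 73.1 and 59.9 CPM, lay between them. The same direction was seen in NPC in KO and WT, where Hist1h3b had 22 and 95 counts in the first and second KO library and 36 and 92 in those of WT. In the 4 knock-in groups of NPC its log2 ratio lay between 0 and 0.73.

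NPC were compared with mESC to describe how histone RNA differs between stem cells and the progenitors made from them. Of the 31 members that passed the filter on low counts, 19 fell in NPC and none rose (edgeR's quasi-likelihood test, adjusted p under 0.05 over 904 genes tested). Among all genes tested, 28% were called lower and 30.4% higher. The median log2 change was -1.07 over the 31 members and -0.02 over all genes tested. The other 36 members had too few counts to be tested. In simulated data, 17.6% of the calls of this comparison were false, above the 5% that the cutoff aims at. Every class was represented among the genes that fell, with 3 of 4 H1 genes, 4 of 5 H2A genes, 3 of 5 H2B genes, 4 of 9 H3 genes and 5 of 8 H4 genes. No member had ranges that failed to overlap between the 12 mESC and the 12 NPC libraries, where 11% of all genes tested had such ranges. Hist1h4j, Hist1h2bf, Hist1h2ac and Hist1h2bb passed the filter through mESC libraries alone, so they could be tested only because they were high there. Likewise, Hist1h2be, Hist1h3i, Hist1h1b and Hist1h3f passed it through NPC libraries alone, the last 2 of these only through those of Q20. Of the 10 fibroblast markers, 1, Fn1, had enough counts for this test and fell by 2.32 ± 0.35 on the log2 scale (SE, edgeR adjusted p 5.41e-06). Others did not follow it: Col3a1, Col1a1, Col1a2, S100a4 and Lum had 0 counts in mESC and 7, 3, 2, 1 and 1 in NPC. The part of feeder cells in the histone levels was not tested.

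Among the H3 genes, Hist1h3a ranged from 29.4 to 77.5 CPM with a median of 41.6 in mESC and from 3.91 to 29.7 CPM with a median of 11.6 in NPC. The ranges met only at the top NPC library, which was a Q111 library. It fell by 2.03 ± 0.23 on the log2 scale (SE), with an adjusted p of 7.9e-08 in edgeR. Hist1h3g ranged from 19.9 to 162 CPM with a median of 45.7 in mESC and from 0 to 34.3 CPM with a median of 5.91 in NPC. It fell by 2.90 ± 0.36 on the log2 scale (SE, edgeR adjusted p 3.24e-07), the largest fall among the 31. Hist1h3c fell by 1.58 ± 0.23 (SE, edgeR adjusted p 3.96e-06). The most counted H3 gene did not follow them, since Hist1h3b had 25.3 to 299 CPM in mESC and 32.9 to 537 CPM in NPC and stood at 0.32 ± 0.41 on the log2 scale (SE, adjusted p 0.523 in edgeR). Its direction turned with the mESC libraries used: it was at 1.65 without the 5 second libraries of the groups other than Q20 (edgeR adjusted p 3.04e-08) and at -0.46 without the 5 first ones (edgeR adjusted p 0.0417).

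Among the H4 genes, Hist1h4a, Hist1h4j, Hist1h4f and Hist1h4d fell by 1.81, 1.43, 1.40 and 1.33 on the log2 scale. Hist1h4d ranged from 21.1 to 48.8 CPM in mESC, with a median of 38.4, and from 6.93 to 28.6 CPM in NPC, with a median of 14.2. Hist4h4 fell less, by 0.76 ± 0.25 (SE, edgeR adjusted p 0.0119), with medians of 116 CPM in mESC and 64.3 CPM in NPC. Hist1h4c and Hist1h4b, at -0.52 and -0.49, did not pass the test, with edgeR adjusted p of 0.0652 and 0.0628.

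The linker histone gene Hist1h1d fell by 1.12 ± 0.19 (SE, edgeR adjusted p 2.28e-05), from a median of 43.0 CPM to 18.6 CPM. Hist1h1c fell by 0.90 and Hist1h1a by 0.69, while Hist1h1b was at 0.11 ± 0.29 (SE). Of the H2A genes, Hist1h2ac, Hist1h2ae, Hist1h2ad and Hist1h2ag fell by 1.45, 1.34, 1.10 and 1.07, and Hist1h2ab was at -0.16 ± 0.25 (SE). Of the H2B genes, Hist1h2bf fell by 1.60 and Hist1h2bb by 1.42, and Hist1h2be was at 0.38 ± 0.27 (SE, edgeR adjusted p 0.237).

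A pair of calls rested on the mESC libraries that stood apart. Hist1h2bh fell by 1.12 ± 0.42 (SE, edgeR adjusted p 0.0254), but without the 5 second mESC libraries its log2 change was 0.11 (edgeR adjusted p 0.683). Hist2h3c2 fell by 1.17 ± 0.47 (SE, edgeR adjusted p 0.0365), and without those libraries its log2 change was -0.31 (edgeR adjusted p 0.455). The other 17 genes that fell were still called. Without the second libraries of those 5 groups, 19 of 31 members were called lower and 1, Hist1h3b, higher, where 34.1% of all genes were called lower and 29.5% higher. Without the first libraries, 23 of 31 were called lower, against 32% of all genes. In the 4 wild-type libraries alone, 5 of 31 were called, all lower, against 9.51% of all genes.

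**Figure D3:**
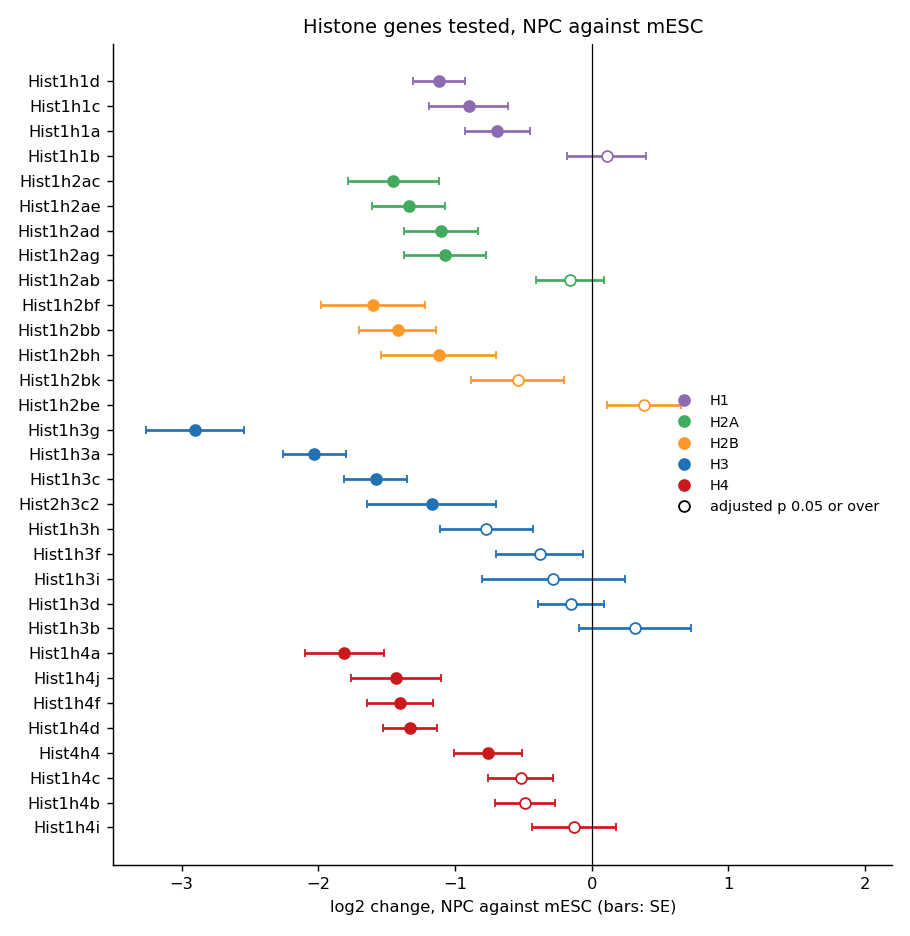
Points give the log2 change of NPC against mESC for each of the 31 histone genes tested, coloured by class and ordered within it, and bars give the SE. Filled points passed an adjusted p of 0.05 and all 19 lie below 0. Hist1h3b, Hist1h2be and Hist1h1b are the 3 open points above 0.

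Genes that act on histones or mark S phase were read from lists beside the members. Of 30 genes for histone mRNA biogenesis, 1, Snrpb, a shared component of spliceosomal particles and not particular to histone mRNA, had enough counts in NPC against mESC and was not called. Slbp, which binds the stem-loop, had 1 to 7 counts per library and could not be tested. Of 13 histone chaperone genes, 3 were tested and 2 fell in NPC, Hat1, the cytoplasmic histone acetyltransferase, by 2.03 ± 0.39 and Nasp, a chaperone of H1 and H3-H4, by 1.44 ± 0.28 on the log2 scale (SE). Of 27 S phase genes, 5 were tested and 3 fell, Uhrf1, which maintains DNA methylation, by 1.70, Top2a, a DNA topoisomerase, by 0.90 and Mcm7, a subunit of the replicative helicase, by 0.67. The edgeR adjusted p of these 5 genes lay between 9.96e-05 and 0.028. In summed level, the S phase list held 138 to 208 CPM in mESC and 49.4 to 171 CPM in NPC. None of 14 replication-independent histone variant genes had enough counts for this test. In bulk samples, fewer cells in S phase and less histone RNA per cell cannot be told apart.

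Knockout was compared with wild type to ask whether loss of huntingtin was accompanied by a change in histone RNA. In mESC, 0 of 43 members were called, against 0% of all 1766 genes tested, and 0 members were under an unadjusted p of 0.05, against 1.02% of all genes (edgeR). In NPC, 0 of 15 members were called, against 1.36% of 441 genes tested, and 2 were under an unadjusted p of 0.05, against 11.6% of all genes. DESeq2's Wald test also called 0 members in both. In simulated data, edgeR's test recovered 58.8% of the changed genes in mESC and 82.7% in NPC. The 2 libraries of a group differed from each other by more than the groups did: the summed level in NPC was 371 and 873 CPM in KO and 331 and 778 CPM in WT. The second library was the higher in both groups, so this difference may be shared between them. A fit with a term for the replicate number called 0 of 43 members in mESC and 0 of 15 in NPC (edgeR). In those fits, 0% and 1.81% of all genes were called. For Hist1h3b, KO stood at 43.0 and 222 CPM and WT at 53.8 and 189 CPM in NPC, with a log2 change of 0.17 ± 0.54 (SE).

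Repeat length was examined in each cell type as a slope fitted to its 8 knock-in libraries. Each repeat number came from 1 line with 2 libraries, which entered the fit as separate points. Repeat length and line therefore cannot be told apart. Each expanded line was also compared with Q20, so all of these results draw on the same Q20 samples. In NPC, 4 of the 13 members tested rose with repeat length and none fell (edgeR, adjusted p under 0.05 over 403 genes), where 2.73% of all genes were called higher and 3.72% lower. The 4 genes were Hist1h3b and Hist2h3c2, which encode H3, and Hist1h2bh and Hist1h2bk, which encode H2B. Hist1h3b passed the filter on low counts in every knock-in group. Hist1h2bh passed it through Q50, Q92 and Q111 libraries, Hist1h2bk through those of Q92 and Q111, and Hist2h3c2 through those of Q111 alone. All but Hist1h3b could thus be tested only through groups with longer repeats, where they are high, so the filter favoured a rise. The 4 genes were singled out for this description with that result known, so their values below describe it and do not support it. Hist1h3b lies on chromosome 13 from 23752267 to 23752886 (plus strand), Hist1h2bh on 13 from 23541714 to 23543392 (minus strand), Hist1h2bk on 13 from 22035870 to 22036345 (plus strand) and Hist2h3c2 on chromosome 3 from 96238108 to 96239127 (minus strand), each with 1 annotated transcript.

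Hist1h3b was at 32.9 and 45.4 CPM in the Q20 NPC libraries and at 102 and 169 CPM in those of Q50. Q92 had 146 and 145 CPM, and Q111 had 504 and 537 CPM. The 4 groups were in the order of the repeat number except that Q50 and Q92 overlapped. It rose by 0.36 ± 0.05 log2 units per 10 repeats (SE), with an edgeR adjusted p of 0.00227.

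Hist1h2bh was at 6.93 and 11.0 CPM in Q20, 25.4 and 16.9 CPM in Q50 and 36.4 and 21.7 CPM in Q92, and it reached 96.1 and 121 CPM in Q111. Q50 and Q92 overlapped here too, and Q20 and Q111 were apart from both. The slope was 0.37 ± 0.05 (SE, edgeR adjusted p 0.00332).

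Hist1h2bk was at 8.67 and 11.0 CPM in Q20, 13.9 and 14.1 CPM in Q50 and 22.8 and 23.2 CPM in Q92, and it reached 75.3 and 45.7 CPM in Q111. No groups overlapped, with a slope of 0.29 ± 0.05 (SE, edgeR adjusted p 0.0111). Without the first Q20 or the first Q111 library this call was lost.

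Hist2h3c2 had 0 and 1 counts in Q20, 2 and 6 in Q50 and 5 and 3 in Q92, against 20 and 13 in Q111, or up to 1.57 CPM in Q20 and 52.0 and 29.7 CPM in Q111. With its slope of 0.44 ± 0.11 (SE, edgeR adjusted p 0.0434), it lost the call in 6 of the 8 fits that left out 1 library: either Q20, either Q111, the first Q50 or the first Q92 library. At these counts, Q20 was below the level that 3 counts mark. The gene passed the filter of that fit only through the Q111 libraries, the group where it is high, so it could be tested only because it differed and adds nothing to the count of genes that rose. Hist1h3g also passed it through Q111 alone and Hist1h2be through Q20 alone, and neither was called.

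**Figure D4:**
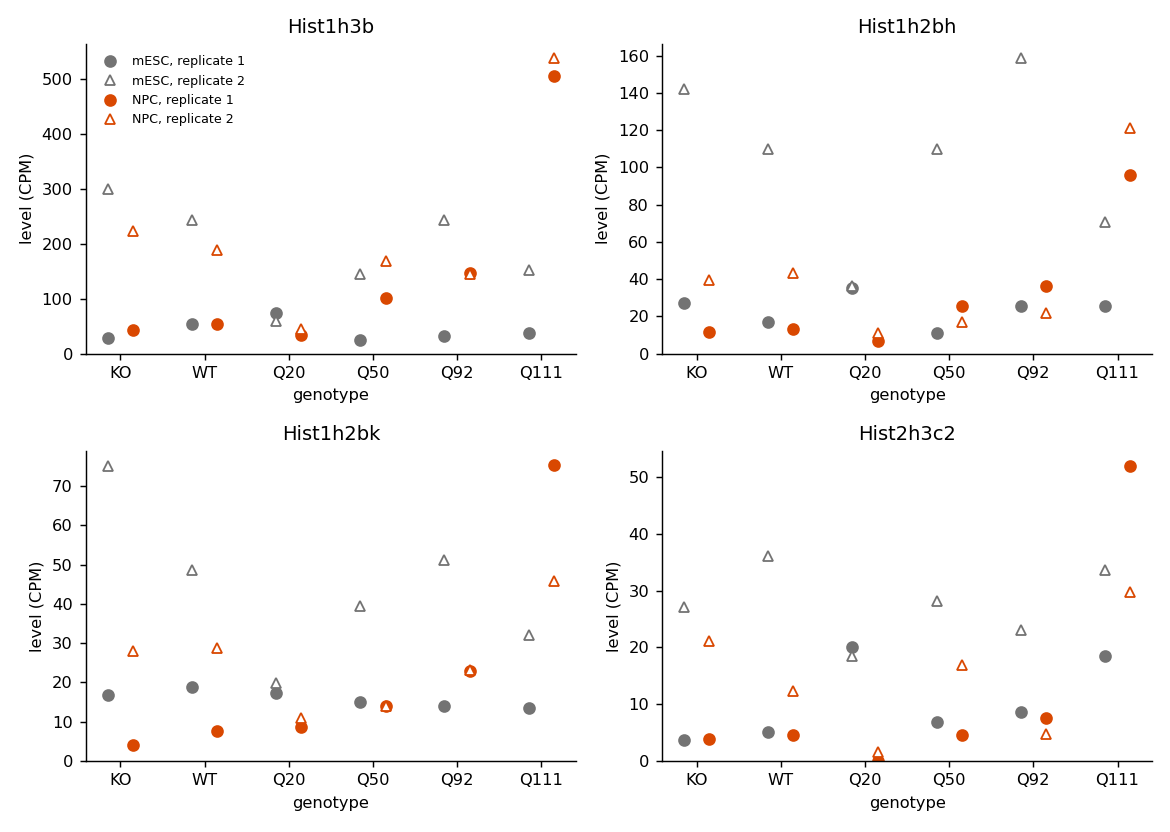
Panels give the level (CPM) of Hist1h3b, Hist1h2bh, Hist1h2bk and Hist2h3c2 by genotype, with 1 point per library, in grey for mESC and orange for NPC, filled for replicate 1 and open for replicate 2. In NPC the 2 Q111 libraries are above the other 10 for each gene, and in mESC the open points lie above the filled ones in the 5 groups other than Q20, while the Q20 pair lies close together.

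The same genes led the direct comparison of the ends of the series. In Q111 against Q20 in NPC, those 4 of 15 members were called and all were higher (edgeR, 441 genes tested), where 6.12% of all genes were called higher and 8.16% lower. Hist1h3b was higher by 3.65 ± 0.58 on the log2 scale (SE, edgeR adjusted p 0.00029), Hist1h2bh by 3.49 ± 0.57 (0.000342) and Hist1h2bk by 2.52 ± 0.62 (0.0108). The call of Hist1h2bk was lost without either Q20 library or the first Q111 library, with edgeR adjusted p of 0.11, 0.0513 and 0.128. Hist2h3c2, with 33 counts in Q111 against 1 in Q20, had a ratio of rates of 48.8, with an exact 95% interval of 8.17 to 1984 that covers counting error only. The median log2 change was 1.06 over the 15 members and -0.11 over all genes, and 14 of the 15 were above 0. Of these, Hist1h3g passed the filter only through Q111 libraries. Hist2h3c2, Hist1h1c and Hist1h4i passed it through KO and Q111 libraries alone, so the filter favoured members high in Q111. The member below 0 was Hist1h2be, at -1.30 ± 0.66 (SE, edgeR adjusted p 0.21). Leaving out the second WT library from the fit gave 10 members called, all higher, against 13.4% of all genes, and fitting the 8 knock-in libraries alone also gave 10, against 13.6%. Leaving out the first Q20, the second Q20 or the first Q111 library gave 3 each, against 1.36%, 4.31% and 2.72% of all genes called higher. The 2 stem cell markers tested, of 18, moved the other way, with Mir302b lower in Q111 by 7.29 ± 0.62 (SE, edgeR adjusted p 3.2e-06). Of 8 neural progenitor markers tested, 1 was called, Mir9-1, higher by 2.95 ± 0.63 (SE, edgeR adjusted p 0.00388). The median log2 change of the 8 was 0.75, with Mir9-3 and Nes below 0, at -1.04 and -0.08. Mir293 and Mir302b also fell along the NPC slope, by 1.85 and 1.55 log2 units per 10 repeats, and the part of cell type make-up in the histone values was not tested.

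The middle lines gave fewer calls against Q20 in NPC. For Q92, 1 of 15 members was called, Hist1h3b, higher by 1.99 ± 0.58 (SE, edgeR adjusted p 0.0262), where 6.35% of all genes were called higher and 9.52% lower. That call was lost without either Q20, either Q92 or either Q111 library. For Q50, 0 of 15 were called, where 17.7% of all genes were called in either direction, with 4 members under an unadjusted p of 0.05, against 30.6% of all genes (edgeR). Hist1h3b was at 1.52 ± 0.60 in that comparison (SE, edgeR adjusted p 0.0903), and DESeq2's Wald test also called 0.

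Q20 itself was compared with WT in NPC. Of 15 members, 1 rose in Q20, Hist1h2be, an H2B gene, with 31.2 and 20.4 CPM in Q20 against 8.97 and 2.05 CPM in WT, a log2 change of 2.26 (edgeR adjusted p 0.0391), where 8.62% of all genes were called higher and 4.08% lower. The call was lost without the second WT library, either Q20 library or either Q92 library. Hist1h2be passed the filter in NPC only through the 2 Q20 libraries, with 18 and 13 counts there and 1 to 9 in the other 10, so it could be tested only because it was high in Q20. The 4 genes with a slope lay lower in Q20 than in WT without passing the test, and for Hist1h3b, Hist1h2bh and Hist2h3c2 the 2 groups did not overlap, as was so with Q20 the lower for 29% of all genes tested. Hist1h3b was at -1.41 ± 0.59 (SE, edgeR adjusted p 0.131), and it was called without the first WT library, at -2.09 (edgeR adjusted p 0.0144), or without either KO library. Stem cell markers moved with this comparison, at 340 and 348 CPM in the Q20 NPC libraries against 10.5 and 12.3 CPM in WT. Neural progenitor markers stood at 149 and 118 CPM in Q20 against 298 and 382 CPM in WT. Of 8 tested, 3 were called: Tnc, Mir9-1 and Slc1a3 fell by 3.43, 2.12 and 1.89 on the log2 scale (edgeR adjusted p 4.26e-05, 0.0418 and 0.00825). The median log2 change of the 8 was -1.59, with Mir9-3 and Vim above 0, at 0.49 and 0.13. The part of stem cell and neural progenitor markers in the values of Q20 was not tested.

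When WT took the place of Q20, 6 of the 15 members were called in Q111 NPC, where 10.9% of all genes were called. These were Hist2h3c2 (log2 change 2.45), Hist1h3b (2.25), Hist1h2bh (2.12), Hist1h2bk (1.94), Hist1h1d (1.51) and Hist1h3g. Hist1h3g, with 23 counts in Q111 against 2 in WT, had a ratio of rates of 16.2, with an exact 95% interval of 3.99 to 141 that covers counting error only, and it passed the filter only through the Q111 libraries. In Q50 and Q92, 0 of 15 were called against WT (edgeR), where 6.58% and 18.8% of all genes were called. Without the Q20 libraries, the slope over Q50, Q92 and Q111 was called for 3 of 13 members, against 1.74% of all genes called higher. They were Hist1h3b (0.35 log2 units per 10 repeats), Hist1h2bh (0.42) and Hist1h2bk (0.39). Hist2h3c2 was at 0.37 in that fit (edgeR adjusted p 0.208). Hist1h2bk was among the members tested there through Q92 and Q111 libraries alone, where it is high.

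In summed level, Q111 NPC stood apart from the other NPC groups. All members together reached 1397 ± 65.1 CPM in Q111 (SD, n = 2). The other groups lay at 622 ± 355 CPM in KO, 555 ± 317 in WT, 561 ± 64.5 in Q20, 480 ± 165 in Q50 and 540 ± 45.8 in Q92 (SD, n = 2 each). With TMM scaling, the groups from Q20 to Q92 did not differ beyond their spread, and there was no graded order in the sum. Over library totals these groups did not overlap. They then held 728 and 607 CPM in Q20, 332 and 450 in Q50, and 859 and 756 in Q92, again without a graded order. As a share of protein-coding counts, histone genes took 2.77 ± 0.115% in Q111, 1.17 ± 0.103% in Q20 and 1.20 ± 0.0834% in Q92 (SD, n = 2 each). By class, H3 rose from a mean of 141 CPM in Q20 to 689 in Q111, H2B from 85.3 to 218 and H4 from 162 to 327. H1 stood at 79.6 and 81.3 CPM and H2A at 93.7 and 81.8 CPM in the same 2 groups. The H3 and H2B sums include the 4 genes with a slope and largely restate them. Those 4 summed to 48.5 and 68.9 CPM in the Q20 libraries and to 727 and 734 CPM in those of Q111. No test was made on sums, which are over chosen genes.

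The make-up of the histone counts shifted between Q20 and the other lines. The 4 genes with a slope took 28 of 350 and 44 of 329 histone counts in the 2 Q20 NPC libraries, the latter 13.4%. Their share was 40.1% and 36.3% in the Q50 libraries and 37.1% and 38.4% in those of Q92. It was 53.9% and 50.9% in Q111, and between 16.8% and 35.7% in KO and WT. The remaining members summed to 502 ± 78.9 CPM in Q20, 299 ± 115 in Q50, 336 ± 33.4 in Q92, against 666 ± 60.5 CPM in Q111 (SD, n = 2 each). Among the knock-in lines, the other members were thus higher in Q20 than in Q50 and Q92 with TMM scaling, while the 4 genes were lowest in Q20. Over library totals, the other members held 670 and 526 CPM in Q20 and 540 and 466 in Q92, which overlapped. Q50, at 199 and 286 CPM, was again lower. The 4 genes were picked for their rise with repeat length, so their low share in Q20 follows from the choice and is not a separate result. Among single genes, Hist1h4d stood at 20.8 and 23.5 CPM in Q20, 6.93 and 14.1 in Q50, and 7.59 and 9.28 in Q92. In Q111 it had 28.6 and 27.4 CPM. Hist1h3c was likewise lower in Q50 and Q92 than in Q20 and highest in Q111. From Q20 to Q111 it had 19.1 and 18.8, 9.25 and 8.44, 10.6 and 9.28, and 46.8 and 36.6 CPM. Neither had an adjusted p under 0.05 in a comparison with Q20.

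Over the 15 members tested in NPC, 8 had both Q111 libraries above each of the other 10 NPC libraries, against 5.67% of all 441 genes tested. Beyond the 4 genes with a slope these were Hist1h3c, Hist1h3g, Hist1h4b and Hist1h4d. Hist1h3g passed the filter only through the Q111 libraries, so it could be tested only because it was high there. Hist2h3c2 passed it through 3 libraries, of KO and Q111 alone. Hist4h4, at 117 and 119 CPM in Q111, was matched by the second KO library at 133 CPM and the second WT library at 119 CPM. The S phase list summed to 171 and 133 CPM in the Q111 NPC libraries, 120 and 89.3 CPM in Q20 and 49.4 to 131 CPM in the other 8, and its part in the histone levels was not tested.

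**Figure D5:**
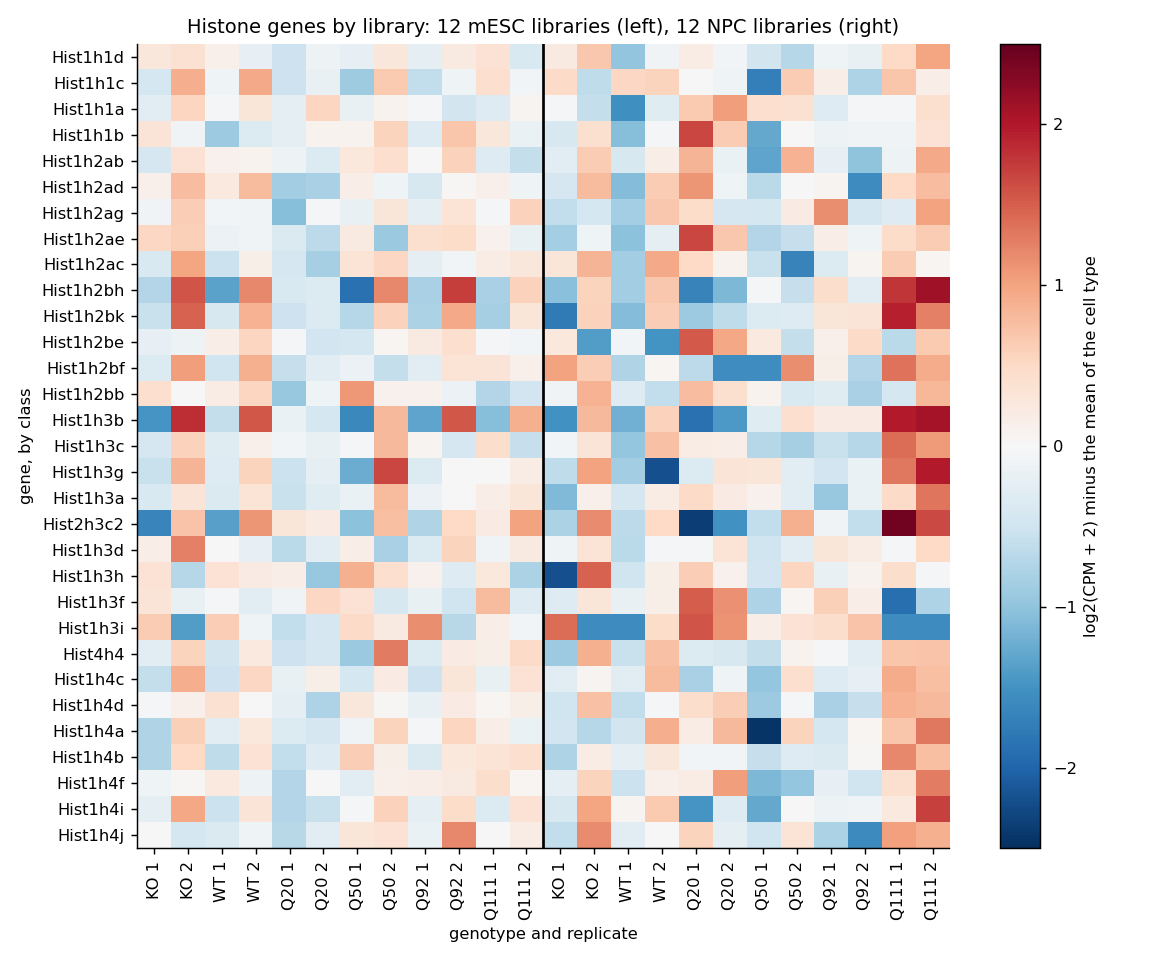
Rows are the 31 histone genes tested between cell types, by class, and columns the 24 libraries. Colour gives log2(CPM + 2) minus the mean of the gene over the 12 libraries of the cell type. Hist1h3b, Hist1h2bh, Hist1h2bk and Hist2h3c2 are red in the second mESC libraries of KO, WT, Q50, Q92 and Q111 and in both Q111 libraries of NPC, where most other rows are also red.

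In mESC no histone gene was called by genotype or repeat length. The slope called 0 of 40 members and 0% of 1487 genes, with 0 members under an unadjusted p of 0.05, against 3.23% of all genes (edgeR). The comparisons of Q50, Q92 and Q111 with Q20 each called 0 of 43 members and 0% of 1766 genes, with 3, 1 and 0 members under an unadjusted p of 0.05, against 5.55%, 2.89% and 3.4% of all genes. Q20 against WT called 0 of 43 members and 0.0566% of genes, with 1 member under an unadjusted p of 0.05, against 4.98% of all genes. DESeq2's Wald test called 0 members in each. The slope of Hist1h3b was 0.07 ± 0.09 log2 units per 10 repeats in mESC (SE), and those of Hist1h2bh, Hist1h2bk and Hist2h3c2 were 0.07 ± 0.09, 0.03 ± 0.07 and 0.02 ± 0.06.

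A difference between the NPC and the mESC slope was tested directly over 16 libraries. Of 23 members tested, 0 passed an adjusted p of 0.05, where 1.51% of 663 genes did, and 5 members were under an unadjusted p of 0.05, against 11% of all genes (edgeR). Hist2h3c2 had a difference of 0.41 ± 0.13 (SE, edgeR adjusted p 0.152), Hist1h3b of 0.28 ± 0.11 (0.316), Hist1h2bh of 0.28 ± 0.13 (0.407) and Hist1h2bk of 0.24 ± 0.09 (0.264). A rise particular to NPC was thus not shown by the test of the difference. In simulated data this test recovered 25.5% of the changed genes, so the lack of calls does not show equal slopes.

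The genes outside the histone set whose levels most resembled the summed histone level across the 12 NPC libraries were ranked by Spearman correlation, as a description. These were Sf3b3, a splicing factor subunit (0.832), Homer3, a synaptic scaffold protein (0.825), the snoRNA gene Gm24339 (0.790), Eif4a1, a translation initiation factor (0.769), and the microRNA gene Mir296 (0.769). The libraries share depth and composition, and Sf3b3, Homer3 and Eif4a1 had at most 14, 15 and 13 counts in a library. Of the members, Hist4h4 ran closest to the sum of the others, with a correlation of 0.86 in NPC and 0.78 in mESC.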

How the data were processed

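The authors' deposited table holds raw counts per Ensembl gene for 55335 genes in 24 columns. CASAVA 1.8, STAR, HTSeq and GRCm38.p6 are named in the submitters' processing notes. Strand use and the treatment of reads with several matches are not given in the sources used here. Gene identifiers were matched to GENCODE mouse release 21 (55154 of 55335). Unmatched identifiers held 57 of 25027120 counts. Small RNA libraries of total RNA hold fragments of histone mRNAs, so values describe such fragments.

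Tests used edgeR 4.0.16 in R 4.3.3 (glmQLFit, glmQLFTest, TMM, and filterByExpr at its settings of 10 counts and 15 in total), with Benjamini-Hochberg adjustment over all genes tested. Genotype comparisons used the 12 libraries of a cell type, slopes the 8 knock-in libraries at 20, 50, 92 and 111 repeats, and NPC against mESC all 24. SE is the log2 change divided by the square root of F. Ratio intervals used scipy 1.17.1. Scripts were tested on simulated data with a log2 change of 2 in 200 genes. For NPC against mESC, 100% of the changed genes tested were recovered, and 17.6% of calls were false. For the slopes, 84.6% were recovered in mESC and 86.8% in NPC, with 6.5% and 7.44% of calls false. For KO against WT, 58.8% were recovered in mESC and 82.7% in NPC, with 1.47% and 1.15% false. For the difference in slopes, 25.5% were recovered and 6.67% of calls were false.

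The members and lists were chosen with earlier results of these data known. Named genes were the 4 with a slope, members called (up to 10 per direction and comparison), the 2 with the highest mean level per class and the 5 genes outside the set most alike. Others were chosen after their values were seen. The S phase, chaperone, variant, histone mRNA biogenesis, stem cell, neural progenitor and fibroblast feeder lists were written by hand.

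Alternatives were DESeq2 1.42.0 (size factors or its Wald test), library totals, no filter, a replicate block, fits of the 4 libraries compared, other repeat scales, WT as control, no Q20 group, wild-type libraries alone and leaving out each library. Leaving out the first or second mESC libraries and fitting the knock-in NPC libraries alone were chosen after seeing the data.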

Additional observations from a re-analysis of the deposited data

How the results depend on the processing

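Of the calls reported, only that of Hist1h2bh in NPC against mESC changed sign, to 0.11 without the second mESC libraries. Counts of members called moved by over 1.5 times as follows, each with the share of all genes called in the same fit, and the cause was not tested except where fewer or more genes or libraries entered the fit. For Q20 against WT in NPC, 1 call of 15 (12.7% of all genes) became 0 with DESeq2's Wald test (7.48%) and in a fit of the 4 libraries (4.99%). For Q50 against Q20 in NPC, 0 (17.7%) became 1 with a replicate block (21.1%), 2 in the fit of 4 libraries (22.9%) and 3 in the 8 knock-in libraries (29.9%). For Q92 against Q20 in NPC, 1 (15.9%) became 0 with DESeq2's Wald test (9.98%) or WT as the control (18.8%), 2 with the block (18.4%), 5 with 4 libraries (35.8%) and 3 with the knock-in libraries (30.8%), so none of these 5 counts was above the share of all genes. For Q111 against Q20 in NPC, 4 (14.3%) became 10 with 4 libraries (25.4%) and 10 with the knock-in libraries (27.4%). For NPC against mESC, 19 of 31 (58.4%) became 30 of 59 tested with no filter (10.4%) and 5 with wild-type libraries alone (23.8%), and scaling to library totals gave 14 (56.3%), among them Hist1h2be, higher by 0.71. The summed level of Q111 against Q20 in NPC was a log2 ratio of 1.12 over library totals against 1.32 with TMM scaling.

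Leaving out 1 library at a time gave 0 to 3 calls for Q20 against WT in NPC, 0 to 2 for Q50 and 0 to 2 for Q92 against Q20, 3 to 10 for Q111 against Q20, 2 to 4 for the NPC slope, 16 to 21 for NPC against mESC and 0 to 1 for the difference in slopes. It gave 0 for KO against WT in NPC and for each mESC comparison. Where it left a group with 1 library, that library was assumed to vary like the others.

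Replicate numbers are those of the labels, where nothing ties a number to a shared batch. Differences between replicates correlated by 0.407 to 0.489 in the 10 mESC pairs of groups without Q20, by -0.005 to 0.081 in the 5 with Q20, and over 0.1 in 4 of 15 NPC pairs, so the numbers were not taken to pair the samples. With the replicate block, 6 members were called for Q111 against Q20 in NPC (16.6% of all genes), 3 for the NPC slope (2.23%) and 16 for NPC against mESC (53%), among them Hist1h3b, higher by 1.23. In mESC the block called 0 members, as without it, while the genes called became 25 of 1766 for Q20 against WT and 20, 2 and 12 for Q50, Q92 and Q111 against Q20. NPC depth limits the members tested there to 15 of 67 at most in genotype comparisons.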
